A study of Mus musculus with 675 samples.

Results

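The cytosolic ribosomal protein genes are the genes for the proteins of the 80S ribosome. They were taken as the protein-coding genes of the GENCODE M21 annotation of GRCm38 whose symbol is Rpl or Rps followed by a number, with or without the ending a, x, y or l, together with Rplp0, Rplp1, Rplp2 and Rpsa. The rule used names only and no measured value. It found 81 of 46517 gene identifiers, 50 of the large subunit and 31 of the small subunit. In smooth muscle-like cells 78 of the 81 reached 10 CPM, the count scaled to a common total, and Rpl3l, Rpl10l and Rpl39l did not. The rule leaves out genes that belong to the ribosome or resemble its proteins but carry other names, such as Rps3a1, Fau, Rack1, Rpl22l1 and Rpl7l1; these are described as a separate list of 6. Annotated copies of ribosomal protein genes with -ps in their symbol were not counted as members; together they held 78.8 CPM in pool A and 93.4 CPM in pool B in smooth muscle-like cells.

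The small subunit of the ribosome decodes the mRNA and the large subunit joins the amino acids. Mammalian cells make the ribosomal proteins in step with each other, and their mRNAs are known for a run of pyrimidines at the very 5′ end, the TOP motif, through which mTOR and La-related proteins control how much of them is translated. In the vessel wall these genes belong to the basic machinery of every cell type, and the amount of ribosomes a cell makes is known to follow its growth.

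The data are Smart-seq2 counts, a plate method that copies full-length mRNA from single sorted cells and adds no molecular identifiers, for 675 cells labelled as aorta, from C57BL/6 males that were 10 weeks old. The series design states males between 8 and 21 weeks, and the extraction text speaks of dissociated heart. Pool A is 54.4% of the cells, from 2 mice on a plate, and pool B is 45.6%, from another 2 mice on another plate; no treatment, transgene or genotype is labelled, and no sort gate is given in the sources used here. Plate and mice cannot be told apart. The pool is the replicate (n = 2), so no exact test of a single value can reach 0.05 and the tests below measure only the spread between these 2 pools. A cell held 51886 to 713700 counts, with a median of 279661 in pool A and 299296 in pool B. The pools also differed in the genes found per cell, with a median of 5279 in pool A and 6136.5 in pool B.

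Cells were clustered without any ribosomal protein gene, so the level of these genes did not form the classes. Clusters 0 and 1 reached 100 CPM for 7 of 7 smooth muscle markers and were called smooth muscle-like (545 cells, 80.1% of pool A and 81.5% of pool B). Cluster 2 reached it for 7 of 7 fibroblast markers (42 and 27 cells) and cluster 4 for 7 of 7 endothelial markers (14 and 8 cells). The 7 smooth muscle markers were also at 100 CPM or more in every other cluster. Pericyte markers reached it for 5 of 7 in cluster 2, 4 of 7 in cluster 3 and 3 of 7 in clusters 0, 1 and 4. In the fibroblast-like cluster of a finer clustering (resolution 1.0) it was 2 of 7. Cluster 0 was 73.6% of the cells in pool A but 26.6% in pool B, and cluster 1 was 6.54% and 54.9%. Among the 10 leading genes of cluster 1 were 2 cardiomyocyte markers, Tnnt2 and Myh6, and 0 smooth muscle markers; 97.7% of its Myh6 counts came from 1 cell. Results of the smooth muscle-like class are therefore given by cluster number too. Cluster 3 (17 and 22 cells, 4.63% and 7.14% of the pools) had 3 of 7 fibroblast, 2 of 7 endothelial and 1 of 5 Schwann markers at 100 CPM and was left unnamed, by a rule revised after the data were seen.

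The bases at the annotated starts were read for the pyrimidine run for which this family is known, and most annotated starts did not carry it. These starts are taken from annotation and were not measured here. A missing run at such a start therefore does not show that the mRNA lacks it. In RefSeq (GRCm38.p6) 61 of the 81 members had an annotated start, and a C at the start followed by at least 4 pyrimidines stood at 13 of them (21.3%), against 3.01% of 27025 genes in the same table. Within 5 bases on either side of the start the run was present in 23 members (37.7%), against 15.6% of all genes. Away from the start itself, a run counted only if the base before its C was not a pyrimidine. Some pyrimidine tracts at or near the start were therefore not counted. Only the strand of the gene was read, and a match is a description of the letters. The windows below run from 10 bases before the start to 20 from it on, with a run that begins within 5 bases of the start in capitals. The first 4 have it at the annotated start, Rpl27a has it from 4 bases before, and Rpl36al and Rpl36a, a pair of near-identical proteins whose balance is described below, have none within 5 bases of the start.
Rpl15, chr14:18270967-18270996, minus strand: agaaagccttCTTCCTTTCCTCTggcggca
Rpl35, chr2:39005112-39005141, minus strand: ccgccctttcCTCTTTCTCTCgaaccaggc
Rpl38, chr11:114668570-114668599, plus strand: aagcctcgttCTTTCCCCgttctcttcggt
Rps6, chr4:86857348-86857377, minus strand: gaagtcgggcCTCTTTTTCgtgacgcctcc
Rpl27a, chr7:109519185-109519214, plus strand: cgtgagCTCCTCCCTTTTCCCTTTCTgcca
Rpl36al, chr12:69184048-69184077, minus strand: ccgtcgctcaggttcagttccgacttccgc
Rpl36a, chrX:134585644-134585673, plus strand: cccaggcaccgcctataaacttccgttgcg
Rps6, the small subunit protein that S6 kinases phosphorylate, held 231.8 CPM in pool A and 268.1 CPM in pool B in smooth muscle-like cells, and Rpl38, a large subunit protein known from skeletal patterning, held 75.5 and 94.01 CPM. The 13 members with the run at their annotated start had a median level of 281.8 CPM per kilobase of transcript. The 45 other matched members at 10 CPM or more had 328.7 CPM per kilobase. Their median log2 ratio of pool B over pool A was 0.31 and 0.36.

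Summed over all members, ribosomal protein genes made up 22067 CPM of smooth muscle-like cells in pool A and 26860 CPM in pool B. Fibroblast-like cells held 21010 and 28097 CPM, and endothelial-like cells 22426 and 28083 CPM. The 3 classes lay close to each other within a pool, and pool B lay above pool A in each of them. The mean over pools was 24464 ± 3389 CPM (SD, n = 2) in smooth muscle-like, 24553 ± 5011 in fibroblast-like and 25254 ± 4000 in endothelial-like cells. Within a pool, the smooth muscle-like sum differed from the endothelial-like sum by -1.6002% in pool A and -4.35% in pool B; these differences were not tested.

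The ratio of pool B to pool A was 1.22 in smooth muscle-like cells (95% interval 1.21 to 1.22), 1.34 in fibroblast-like cells (1.33 to 1.35) and 1.25 in endothelial-like cells (1.24 to 1.27). These intervals cover counting error only, since amplified reads are not independent molecules, and each class has 1 sum per pool, so the difference has no replicate check. By cluster, the sum was 21968 and 26256 CPM in cluster 0 (ratio 1.20), 23042 and 27071 in cluster 1 (1.17) and 20204 and 24895 in cluster 3 (1.23). Pool B was thus the higher pool in each of the clusters as well. Within a pool the order of smooth muscle-like and fibroblast-like cells was not the same: the smooth muscle-like sum was 5.03% above the fibroblast-like sum in pool A and differed from it by -4.40% in pool B.

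**Figure D1:**
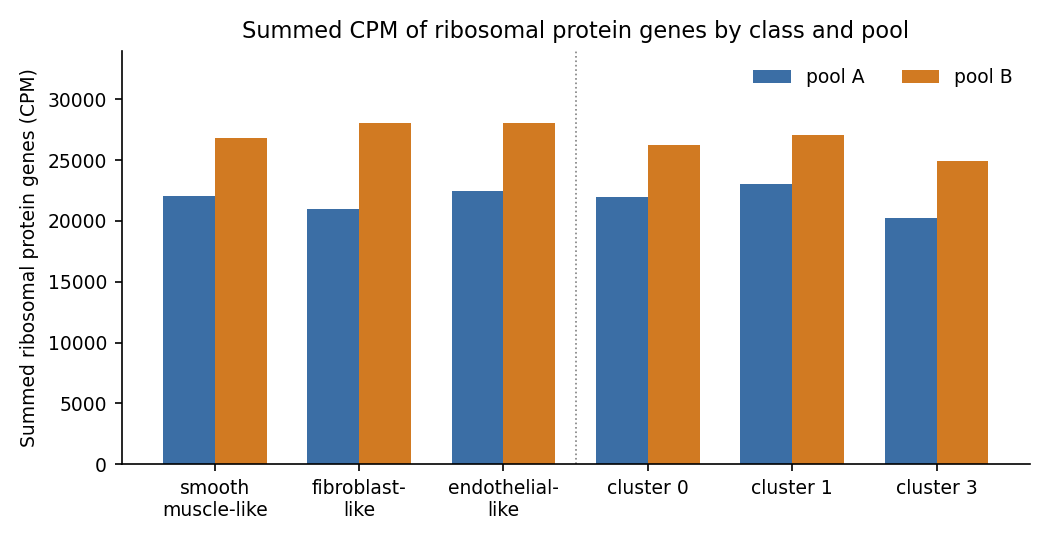
Summed CPM of the 81 ribosomal protein genes (vertical axis, CPM, from 0) in each class and, right of the dotted line, in clusters 0, 1 and 3; each bar is the sum over all cells of 1 pool. The pool B bar is above the pool A bar in every class and cluster, from 26860 against 22067 CPM in smooth muscle-like cells to 28097 against 21010 CPM in fibroblast-like cells.

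Single cells showed the same order. The median share of a cell's counts was 2.20% (0.316 to 7.24%) in smooth muscle-like cells of pool A and 2.69% (1.26 to 4.26%) in those of pool B. It was 2.012% (0.959 to 3.21%) and 2.68% (1.59 to 4.43%) in fibroblast-like cells, and 2.24% (1.35 to 2.88%) and 3.11% (2.32 to 3.65%) in endothelial-like cells. The ranges of the pools overlapped in every class, but few cells crossed the other pool's median: in smooth muscle-like cells 23 cells of pool A (7.82% of them) lay above the pool B median, and 26 cells of pool B (10.4%) lay below the pool A median. In both pools the sum was lower in deeper smooth muscle-like cells. With the smooth muscle-like cells in 4 equal bins of depth, the sum in the shallowest bin was 23658 CPM in pool A and 28600 CPM in pool B, and in the deepest bin 20917 and 25725 CPM; pool B was higher in each bin. When every cell was thinned to 50000 counts, the median smooth muscle-like cell had 77 members with a count in pool A and 78 in pool B.

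**Figure D2:**
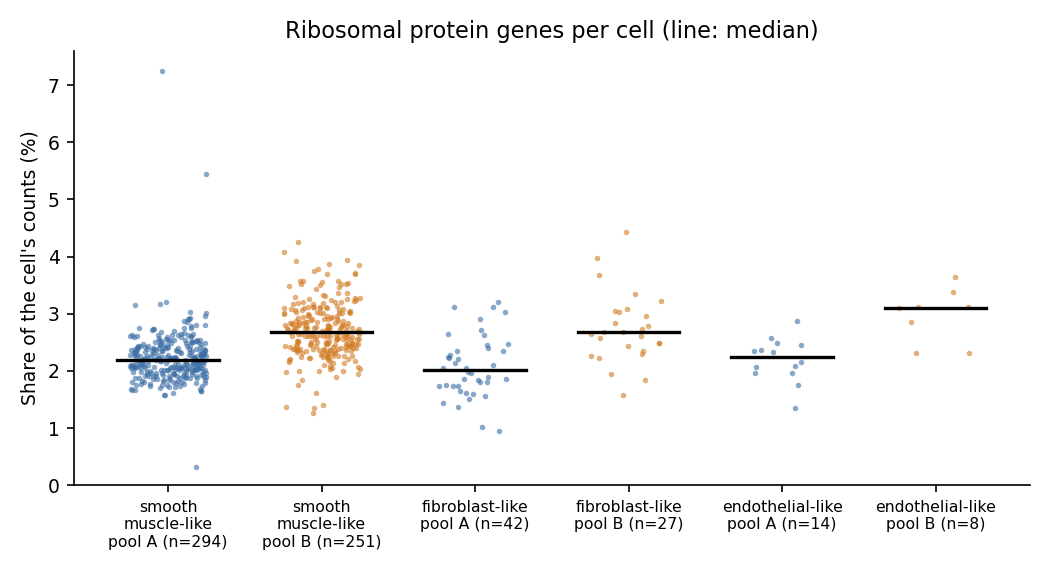
Share of each cell's counts in ribosomal protein genes (vertical axis, percent) by class and pool; each point is 1 cell, the black line is the median, and the sideways scatter carries no value. The medians are 2.20% in pool A and 2.69% in pool B in smooth muscle-like cells, and 3 pool A cells at 7.24%, 5.45% and 0.316% stand apart from the rest.

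The difference between the pools ran through nearly the whole family. In smooth muscle-like cells 77 of 78 members at 10 CPM or more were higher in pool B, with a median log2 ratio of 0.34 (lowest -0.02, highest 0.66). Of all 9522 genes at that level 49.6% were higher in pool B, with a median of -0.00. Of the 1963 genes at 100 to 1000 CPM, which leave out the members, 59.7% were higher with a median of 0.07. In fibroblast-like cells 75 of 78 members were higher in pool B (median 0.48), against 49.8% of 9621 genes. In endothelial-like cells 58 of 78 were higher (median 0.37), against 49.4% of 9147 genes. In cluster 0 the count was 76 of 78 (median 0.31) against 44.4% of 9466 genes, and in cluster 1 it was 75 of 78 (median 0.27) against 48.7% of 9406 genes. Both subunits took part: 47 of 47 large subunit and 30 of 31 small subunit members were higher in pool B in smooth muscle-like cells, and 47 of 47 and 28 of 31 in fibroblast-like cells. In all 3 classes together 56 of 78 members were higher in pool B, against 18.6% of 7073 genes.

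The members did not all move by the same amount. Rps25, a small subunit protein known for its part in internal initiation, held 110.7 CPM in pool A and 175.3 CPM in pool B in smooth muscle-like cells, a log2 ratio of 0.66. Pool A was the lower pool in the other classes as well, with 128.6 and 211.8 CPM in fibroblast-like and 102.6 and 161.6 CPM in endothelial-like cells. Rpl27 (127.2 and 190.5 CPM, log2 ratio 0.58) and Rpl18 (249.3 and 367.1 CPM, 0.56), both of the large subunit, came next. At the other end Rps28, of the small subunit, held 124.9 CPM in pool A and 123.04 CPM in pool B, a log2 ratio of -0.02. Its values lay nearly level in fibroblast-like cells too (172.5 and 164.5 CPM) and in endothelial-like cells (148.01 and 144.6 CPM). Rpl5, which carries 5S rRNA into the large subunit together with Rpl11, was at 226.2 and 231.3 CPM (0.03), and Rps27 at 158.1 and 164.4 CPM (0.06). Across the 78 members the log2 ratios of smooth muscle-like and fibroblast-like cells had r = 0.59, and those of clusters 0 and 1 had r = 0.75; members of a pool share its plate and mice, so this is a description. The log2 ratio showed little relation to transcript length (r = -0.01) or GC content (r = 0.07) over the same members.

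**Figure D3:**
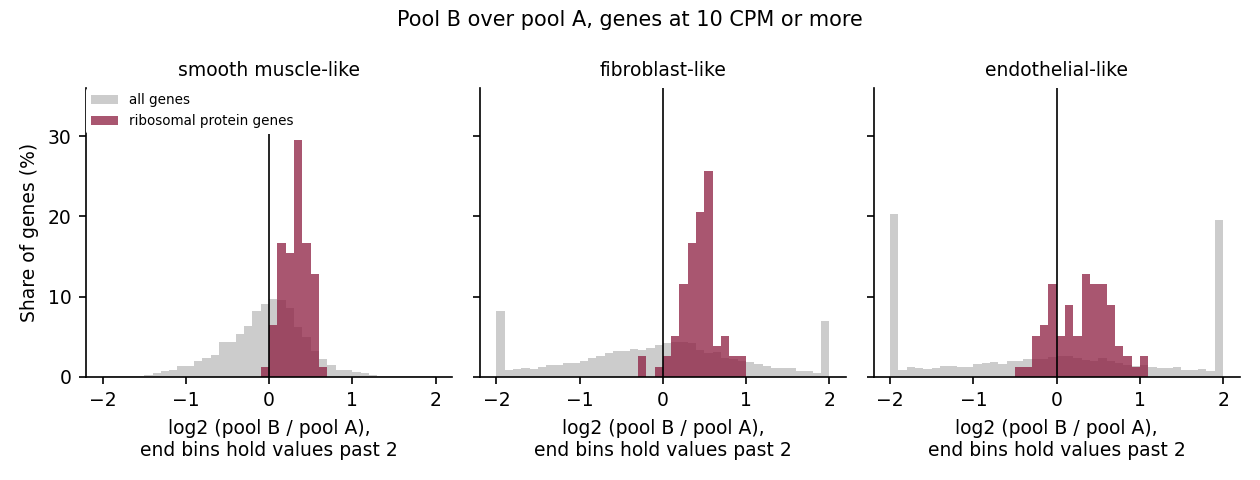
Distribution of the log2 ratio of pool B over pool A (horizontal axis, log2 with 1 CPM added) over all genes at 10 CPM or more (grey) and over 78 ribosomal protein genes (red), as a share of each set (vertical axis, percent), in 3 classes. The red bars lie right of 0 for 77 of 78 members in smooth muscle-like cells and for 58 of 78 in endothelial-like cells, while the grey bars centre on 0.

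Other gene sets moved with the pool to unlike degrees. The 6 genes outside the name rule had a summed ratio of pool B over pool A of 1.24 in smooth muscle-like, 1.34 in fibroblast-like and 1.27 in endothelial-like cells, and 6 of 6 were higher in pool B in smooth muscle-like cells. A list of translation factors and a few other genes, taken here as having TOP mRNAs, had 1.02, 1.12 and 1.30. Of these, 12 of 19 were higher in smooth muscle-like cells with a median log2 ratio of 0.07. The pyrimidine run described above stood at the annotated start in 2 of 13 of them (15.4%). Eef1a1, the factor that brings aminoacyl-tRNA to the ribosome, was level at 1756 and 1757 CPM, and Eef2, which moves the ribosome along, was at 1142 and 1110 CPM. Ribosome biogenesis genes had ratios of 1.06, 0.914 and 0.919; Ncl, nucleolin, was at 320.2 and 334.6 CPM. Mitochondrial ribosomal protein genes had 1.18, 1.10 and 1.13, with 63 of 78 higher in pool B in smooth muscle-like cells, but 39 of 78 in cluster 0. The mitochondrially encoded genes had 0.893, 0.951 and 1.26, and rows that resemble ribosomal RNA had 0.958, 1.18 and 1.33. The part of these sets, of depth and of the cluster make-up in the pool difference was not tested.

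Levels between members can be compared only per length, and here as CPM per kilobase of each gene's principal annotated transcript (APPRIS rank, then support level, then length). Among the 78 members the median in smooth muscle-like cells was 311.8 CPM per kb. Rps9, of the small subunit, held 711 and 877 CPM in pools A and B, which is 1057 ± 156.7 CPM per kb (SD, n = 2). Rpl8, a core protein next to the peptidyl transferase centre, was at 896 ± 94.7 CPM per kb, and the SD ranges of Rps9 and Rpl8 overlapped. Rps14 (813 ± 135.97), Rpl32 (775 ± 197.2), Rplp1 (768 ± 122.9), Rpl13a (737 ± 44.2) and Rpl4 (717 ± 31.3) had SD ranges that overlapped. Rps15a was the lowest of the 78 at 36.2 ± 6.98 CPM per kb, but the transcript used for it has 5179 bases; Rpl22 was next at 81.99 ± 16.6. Over the 78 members the level per kb had r = -0.38 with transcript length and r = 0.35 with GC content, which share the annotation used for the length.

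The order of levels was much the same in every class. Over the 78 members the CPM values of the pools had r = 0.99 in smooth muscle-like cells, and the means of smooth muscle-like cells had r = 0.94 with those of fibroblast-like and r = 0.96 with those of endothelial-like cells. Of the stalk proteins, which recruit the elongation factors, Rplp0 held 711 CPM in pool A and 775 CPM in pool B in smooth muscle-like cells, Rplp1 339.8 and 426 CPM and Rplp2 214.6 and 287.9 CPM. Rpsa, the small subunit protein also known as a laminin receptor, held 326.4 and 357.5 CPM in smooth muscle-like, 384.6 and 332.7 in fibroblast-like and 251.9 and 308.2 in endothelial-like cells; fibroblast-like cells were its exception, with pool B below pool A. Rps27a, which is made as a fusion with ubiquitin, held 274.3 and 330.5 CPM in smooth muscle-like cells.

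Comparing smooth muscle-like with fibroblast-like cells, no member passed the test. With edgeR's quasi-likelihood test on counts summed per pool and class, 0 of 79 members had a Benjamini-Hochberg adjusted p under 0.05, against 5.87% of 8674 genes tested; 4 members had an unadjusted p under 0.05, against 19.9% of those genes. DESeq2 called 0 of 78, against 17.2% of 7613 genes, also with 4 at an unadjusted p under 0.05, against 27.2% of all genes. The median log2 difference of the members was -0.11, against 0.23 over all genes tested, and 0.14 over 1010 other genes at 100 to 1000 CPM, of which 23.7% were called. Of the 78 members at 10 CPM or more, 72 lay within 0.5 on the log2 scale. The median standard error of a member was 0.22, so a single member would need a larger difference than most of these to pass.

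In pool A and pool B, in that order here and below, Rpl8 held 706 and 820 CPM in smooth muscle-like and 419 and 535 CPM in fibroblast-like cells. The smooth muscle-like values were the higher ones in both pools and the classes did not overlap. With 2 pools per class, values can lie apart in this way without a class difference. Non-overlap was seen for 15 of 79 members in this comparison. It was not counted over all genes, so it is a description only. The log2 difference of Rpl8 was 0.63 ± 0.18 (SE, adjusted p = 0.124, edgeR). Rpl29, with 119.3 and 165.4 CPM against 63.8 and 116.5 CPM, had a log2 difference of 0.64 ± 0.30, and Rpl10a, Rpl3 and Rpl5, all of the large subunit, had 0.46, 0.46 and 0.44. In the other direction Rpl27a, of the large subunit and printed above with its pyrimidine run, held 202.6 and 273.1 CPM in smooth muscle-like and 309.04 and 404 CPM in fibroblast-like cells. Its fibroblast-like values were higher in both pools, without overlap, and its log2 difference was -0.65 ± 0.21 (adjusted p = 0.166, edgeR). Rps20 (-0.55), Rplp1 (-0.52) and Rps28 (-0.50) lay in the same direction, and Rpl10l, from few counts, at -1.10 ± 1.33. When each cell was thinned to 50000 counts before summing, which gives every cell the same weight, edgeR called 3 members, Rpl8 (log2 0.72, adjusted p = 0.00660), Rpl27a (-0.72, 0.0402) and Rps20 (-0.66, 0.0443), against 13.3% of 6986 genes. Without the filter on low counts it called Rpl8 alone (0.79, adjusted p = 0.0265), against 4.08% of 13275 genes.

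**Figure D4:**
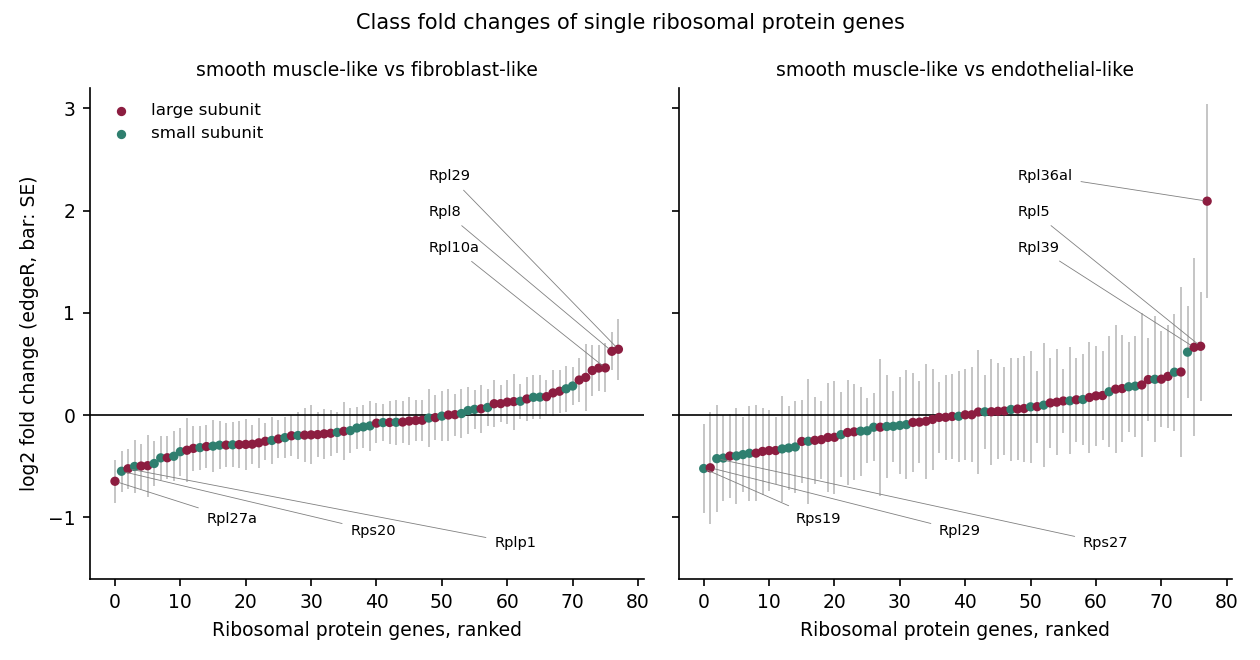
Log2 fold change of each of the 78 members at 10 CPM or more (vertical axis, edgeR, bar: SE), ranked from lowest to highest (horizontal axis), for smooth muscle-like cells against the fibroblast-like class (left) and the endothelial-like class (right); colours give the subunit. In both panels 72 of 78 points lie within 0.5 of 0, and Rpl36al at 2.09 ± 0.95 stands above the others on the right.

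Against endothelial-like cells the members were measured less precisely, with a median standard error of 0.47. edgeR called 0 of 79 members, against 4.78% of 8340 genes. At an unadjusted p under 0.05 it had 1 member, against 13.2% of those genes. DESeq2 called 0 of 78, against 12.4% of 7058 genes. It had 0 members at an unadjusted p under 0.05, against 24.4% of those genes. The members' median log2 difference was -0.01, against 0.73 over all genes tested and 0.09 over 1105 other genes at 100 to 1000 CPM. The member with the unadjusted p was Rpl36al. It held 90.5 and 118.2 CPM in smooth muscle-like and 23.7 and 24.2 CPM in endothelial-like cells. The classes did not overlap, as was so for 25 of 79 members in this comparison. Such cases were not counted over all genes, so this too is a description only. The log2 difference of Rpl36al was 2.09 ± 0.95 (adjusted p = 0.339, edgeR), and it rests on 73 and 37 counts in the 14 and 8 endothelial-like cells. Between fibroblast-like and endothelial-like cells edgeR called 0 of 78 members, against 3.13% of 6042 genes, and DESeq2 called 0 of 78, against 13.1% of 5584 genes. At an unadjusted p under 0.05 both had 0 members, against 15.2% of all genes in edgeR and 23.2% in DESeq2. The median there was 0.11, against 0.30 over all genes tested.

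The summed level of the members in cluster 1 was 4.89% above that of cluster 0 in pool A and 3.11% above it in pool B. Between clusters 1 and 0 edgeR called 0 of 80 members and 0% of 8279 genes, with 0 members and 424 genes at an unadjusted p under 0.05. DESeq2 called 0 of 78 members, against 0.76% of 7241 genes. It had 0 members at an unadjusted p under 0.05, against 11.2% of those genes. The median log2 difference of the members was 0.03, against -0.06 over all genes tested, and 78 of 78 members at 10 CPM or more lay within 0.5. The standard deviation of the log2 differences over those members was 0.07, against 0.28 in the comparison with fibroblast-like cells.

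Several ribosomal proteins have a second gene for a related protein, and the balance within such pairs was read as the share of the pair's counts. Rpl36al made up 48.98% of the Rpl36a and Rpl36al counts in smooth muscle-like cells of pool A (exact 95% interval 48.2 to 49.8%) and 46.4% in pool B (45.7 to 47.1%). It was 36.2% (33.5 to 38.99%) and 41.3% (38.4 to 44.3%) in fibroblast-like cells and 18.1% (14.5 to 22.2%) and 23.7% (17.3 to 31.2%) in endothelial-like cells. The order smooth muscle-like, fibroblast-like, endothelial-like held in both pools without overlap of the class values; the intervals cover counting error only, and no test of the share was made. Rps27l made up 45.3% and 50.6% of its pair with Rps27 in smooth muscle-like, 45.7% and 37.6% in fibroblast-like and 31.6% and 38.5% in endothelial-like cells; there the order of smooth muscle-like and fibroblast-like cells turned between the pools. Rpl22l1 made up 35.99% and 33.7% of its pair with Rpl22 in smooth muscle-like, 41.4% and 43.3% in fibroblast-like and 25.4% and 21.3% in endothelial-like cells, again without overlap. Rpl7l1 made up 14.1% and 14.9% of its pair with Rpl7 in smooth muscle-like, 13.01% and 16.6% in fibroblast-like and 7.82% and 14.9% in endothelial-like cells, and its classes overlapped.

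Rps4l is annotated as a transcribed processed pseudogene of Rps4x and is not a member. In smooth muscle-like cells it was low, with 16.4 and 25.99 CPM, and held 35.1 and 91.7 CPM in fibroblast-like and 84.1 and 117.8 CPM in endothelial-like cells. It made up 2.58% and 3.69% of the pair's counts in smooth muscle-like cells and 13.4% and 14.03% in endothelial-like cells. The log2 difference to fibroblast-like cells was -1.52 ± 0.52 (adjusted p = 0.190, edgeR) and -1.54 in DESeq2 (adjusted p = 0.0281). Its counts came from few cells, 7 of 42 and 10 of 27 fibroblast-like cells, and with fibroblast-like cells that a finer clustering also names so the difference was 0.02. A share of 76.4% of the 40-base words of Rps4x occurs in transcripts of other genes, so how the counting placed shared reads bears on such pairs. Over the 78 members the share of such words had a median of 53.6% and reached 98.7% in Rps27, and it had r = -0.02 with the log2 ratio of the pools.

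**Figure D5:**
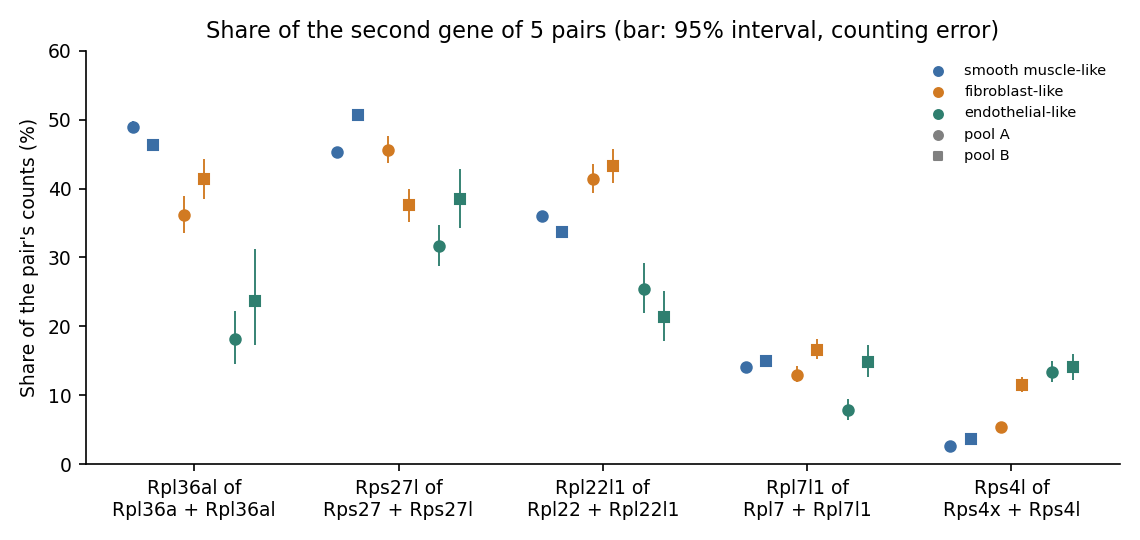
Share of the second gene in the counts of 5 gene pairs (vertical axis, percent) for 3 classes (colours) in pool A (circles) and pool B (squares), with exact 95% intervals for counting error. Rpl36al falls from 48.98% and 46.4% in smooth muscle-like cells to 18.1% and 23.7% in endothelial-like cells, while the Rps27l and Rpl7l1 classes overlap.

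The remaining 3 members were almost silent. Rpl3l, the form of Rpl3 known from striated muscle, was found in 4 smooth muscle-like cells of pool B, at 1.73 CPM over the class with 97.9% of the counts in 1 cell, and had 0 counts in smooth muscle-like cells of pool A, where a count of 0 allows up to 0.0345 CPM. In fibroblast-like and endothelial-like cells it also had 0 counts, which allows up to 0.390 and 0.663 CPM and up to 0.974 and 1.96 CPM in pools A and B. Rpl10l, known from the male germ line, had 24 and 28 counts in 11 and 18 smooth muscle-like cells, 2 and 6 counts in fibroblast-like cells and 0 in endothelial-like cells. Rpl39l, also known from the testis, had 22 and 16 counts in 9 and 10 smooth muscle-like cells and 0 in the other named classes.

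In smooth muscle-like cells the large and small subunit sums rose and fell together from cell to cell. Over smooth muscle-like cells thinned to 50000 counts, the large subunit sum and the small subunit sum had r = 0.88 in pool A and r = 0.90 in pool B (545 cells in all); cells of a pool share its plate and mice, and both sums share the total of the cell. The total of the members had r = 0.31 and 0.65 with the translation factors of the TOP list, 0.49 and 0.51 with the mitochondrial ribosomal proteins and 0.04 and 0.20 with the ribosome biogenesis genes. For the mitochondrial ribosomal proteins Spearman's rho was 0.15 in pool A, which holds the 3 cells with shares far from the rest, and 0.42 in pool B. Single members differed in how evenly they were spread. The coefficient of variation over these cells, as the mean of the pools, ran from 0.317 to 0.829 with a median of 0.465. It was lowest in Rpl10 (0.317, of which counting alone gives 0.201), Rpl4 (0.327) and Rpl13a (0.333). It was highest in Rps27l (0.829, counting alone 0.364), Rpl22 (0.778) and Rpl38 (0.754). The pool A cell with the highest share, 7.24%, held Rps27l at 1674 CPM. The part of that cell in the variation of Rps27l was not tested. Over the 78 members counting alone gave 0.133 to 0.485, with more at low levels such as that of Rpl38. The order was not the same in each pool: in pool A the highest was Rps27l at 1.01 and the lowest Rpl10 at 0.331, and in pool B the highest was Rpl38 at 0.706, above Rps27l at 0.651, and the lowest Rpl13 at 0.279.

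Some cells stood apart from their class and were picked after their values were seen. The highest share, 7.24%, was that of a pool A cell of cluster 0 with 139792 counts, which had Acta2 at 6560 CPM and Myh11 at 5394 CPM, the usual smooth muscle genes, but Rpl3 at 0. The lowest, 0.316%, was a pool A cell of cluster 0 with 103005 counts in which 21 members were at 0. It held the platelet genes Itga2b, Ppbp and Pf4 at 12562, 7699 and 4660 CPM and Myh11 at 97.1 CPM. The cell with most Rpl3l counts was a pool B cell of cluster 1, with Rpl3l at 430 CPM beside Rpl3 at 534 CPM. It held the cardiomyocyte genes Myh6, Tnnt2 and Tnni3 at 5627, 3908 and 2125 CPM and Myh11 at 87.9 CPM, and its ribosomal protein share was 3.94%.

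Of the lists that surround the family, 1 gene passed edgeR's test. Eef2k, the kinase that inhibits Eef2, held 103.99 and 108.4 CPM in smooth muscle-like and 18.9 and 30.9 CPM in fibroblast-like cells. Its log2 difference was 2.08 ± 0.42 (adjusted p = 0.0346, edgeR), and it was the 1 called gene among 23 other translation factors. In smooth muscle-like against fibroblast-like cells 0 of 19 TOP translation factors, 0 of 43 ribosome biogenesis genes, 0 of 23 regulators around mTOR and Myc, 0 of 78 mitochondrial ribosomal protein genes and 0 of 6 genes outside the name rule were called by edgeR, against 5.87% of all genes tested. At an unadjusted p under 0.05 they had 6, 3, 6, 12 and 1, against 19.9% of all genes tested. DESeq2 called 1, 3, 4, 5 and 0 of them, against 17.2% of all genes. The median log2 difference was 0.28, 0.35, 0.38, 0.52 and -0.04 in these lists, so the genes outside the name rule lay nearest to the members (-0.11). Rack1, a scaffold protein of the small subunit, held 575 and 699 CPM in smooth muscle-like and 534 and 603 CPM in fibroblast-like cells.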

How the data were processed

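The file the authors deposited holds whole-number counts with no normalization. Subread, featureCounts, Bowtie2, Bowtie and bcl2fastq are named with GRCm38 (mm10), without versions, per the submitters' processing notes. The handling of reads shared between gene copies and of duplicates is not stated in the sources used here. The members and lists were chosen with earlier results of these data known. A minimum of 1000 genes and 20000 counts removed 0 of 675 cells, and no doublet caller was run.

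Clustering used 23001 genes without members or lists, 2000 variable genes, 20 components, 15 neighbours and Leiden resolution 0.5 (scanpy 1.11.5, anndata 0.12.19, leidenalg 0.10.2, Python 3.11.15, numpy 2.4.6, scipy 1.17.1, pandas 2.3.3, matplotlib 3.10.9). Tests ran over genes not used there, although the same cells were clustered and tested. Counts were summed per pool and class and fitted with edgeR 4.0.16 (R 4.3.3; filterByExpr, TMM, quasi-likelihood test, Benjamini-Hochberg, threshold 0.05) with the pool as a block; DESeq2 1.42.0 was the alternative. The fit was tested on simulated data. Classes of a pool come from the same mice and plate per the labels; over 5893 genes, which are not independent, pool deviations had r = 0.18, 0.17 and 0.06 between the 3 pairs of classes. Pool ratios add 1 CPM. Intervals are exact Clopper-Pearson at 95%, floors are 3 counts, and both cover counting error only. Of the counts, 0.217% belonged to identifiers without a symbol.

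Genes are named by level per kb (8 highest, 5 lowest), class fold change (5 at each end), gene pairs, stalk, Rpsa and Rps27a, cell-to-cell variation and pool ratio (3 at each end), and from the lists called genes or those of highest level; some genes that this rule names are not reported here. Alternatives were the block, scaling, filter, tool, pseudogene rows, rRNA-like and mitochondrial rows, resolution, cell depth, thinning and leaving out a pool. Settings added after the data were seen were cells of 100000 to 250000 counts, cluster 3 counted as smooth muscle-like, and cluster 0 alone. Another added then left out 3 cells, those with the highest share, the lowest share and the most Rpl3l counts. The pool A cell with a share of 5.45% was kept there.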

Additional observations from a re-analysis of the deposited data

Results flagged for a closer look

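The order of smooth muscle-like and fibroblast-like cells in the summed ribosomal protein genes turned between the pools. In pool A the smooth muscle-like sum was 5.03% above the fibroblast-like sum, and in pool B it differed from it by -4.40%. The difference between the pools was not tested, since each class has 1 sum per pool. Fibroblast-like cells are 42 and 27 cells, 11.4% and 8.77% of the pools, and their own ratio of pool B over pool A was 1.34 against 1.22.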

How the results depend on the processing

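With 2 pools, 14 and 8 endothelial-like cells and plate and mice as 1 factor, small differences of single members could not be detected, and the pool ratio has no replicate check. Without the replicate block, which rests on the pairing of classes within a pool, the count of called members stayed 0 in the 4 comparisons and the median against fibroblast-like cells was -0.13 for the smooth muscle-like class. Called members there were 1 without the low-count filter and 3 in thinned cells; the cause was not tested. Their median was 0.0573 without the filter, -0.0449 at resolution 0.25 and -0.0996 to -0.0217 leaving out a pool. Against endothelial-like cells it was -0.18 (RLE scaling), 0.11 (no filter), -0.17 (DESeq2), -0.14 (resolution 0.25), -0.0848 (thinned) and -0.0668 (cluster 0 alone), and -0.00592 to 0.0290 leaving out a pool. All tested genes shifted by -0.17, 0.11 and -0.16 in the first 3 of these, and by 0.16 without the filter against fibroblast-like cells. For fibroblast-like against endothelial-like cells the median was 0.00632 (RLE), -0.0732 (resolution 0.25) and -0.0379 to 0.0858 leaving out a pool, and between the clusters 0.0527 to 0.0801. The ratio of pool B over pool A stayed above 1 in every setting run. In smooth muscle-like cells it was 1.21 without rRNA-like and mitochondrial rows, 1.21 at resolution 1.0, 1.22 in cells of 100000 to 250000 counts, 1.20 in cluster 0 alone and 1.23 with RLE. In fibroblast-like cells it was 1.29 at resolution 0.25, 1.35 in deeper cells, 1.28 in cells of 100000 to 250000 counts and 1.38 with RLE. In endothelial-like cells it was 1.27 without those rows, 1.31 at resolution 0.25, 1.22 in deeper cells, 1.35 thinned and 1.21 with RLE. Single differences to the fibroblast-like class that turned sign were Rpl10l (0.13 in deeper cells), Rps4l (0.0202 with the finer fibroblast-like class), Rps27l (0.13 without the filter, 0.0276 at resolution 0.25) and Rpl7l1 (0.0880 and 0.0418). Of all values of single genes under other settings, 96.3% kept direction and side of the threshold and 5 passed it newly. Endothelial-like cells and the clusters had too few cells of 100000 to 250000 counts to run.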
